A study of Mus musculus with 48 samples.

Results

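Oxidative phosphorylation is carried out in the inner mitochondrial membrane by complexes I to IV of the respiratory chain and by complex V, the ATP synthase. The transcripts of their nuclear-encoded subunits were followed in brain tissue of mice with a humanised clock gene. Members were genes whose symbol, taken from the RefSeq accession of the probe, begins with Nduf (complex I), Uqcr (complex III), Cox4 to Cox8 (complex IV) or Atp5 (complex V), or is Sdha, Sdhb, Sdhc or Sdhd (complex II). The array held 91 such genes of 18883 named genes, on 115 probes. In each tissue 89 of the 91 were tested, which needed a signal well above background on at least 6 of the 8 arrays of a group. The other 2 were Cox4i2, the lung form of subunit 4, and Cox8c, a testis form of subunit 8. Cox4i2 was well above background on 2 to 5 of 8 arrays per group, and Cox8c on 0 of 8 in every group. Complex I had 36 subunit genes, 7 of them core and 29 accessory, and 7 assembly factor genes. Complex II had 4 genes, complex III 8 and complex V 17. Complex IV had 11 genes of the common subunits, counting Ndufa4, and 6 tested genes of tissue isoforms or related proteins.

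Complexes I, III and IV pass electrons from NADH to oxygen and pump protons, complex II feeds in electrons from succinate, and complex V uses the proton gradient to make ATP. Complex IV, cytochrome c oxidase, is the enzyme that consumes the oxygen, and its activity has long been used as a histological marker of neuronal activity. Several of its nuclear-encoded subunits exist as paired isoforms, a common one and one typical of heart and skeletal muscle, testis or lung.

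Frontal cortex (hereafter cortex) and hypothalamus were taken from the same 24 mice, 8 per genotype, 1 array per tissue. Both knock-ins were homozygous for the human PER3 exon that encodes a variable number tandem repeat, in place of the mouse exon, with 4 repeats in Per3 4/4 and 5 repeats in Per3 5/5. WT mice were homozygous for mouse Per3, and none of the mice used carried the Cre recombinase that had produced the knock-in alleles. The background was C57BL/6, with minor contributions from the embryonic stem cells. All 24 mice had been sleep deprived for 12 h during the light phase, so no array showed the state without sleep deprivation. Ages and sexes are not in the labels. Each knock-in therefore differed from WT in the species of the exon as well as in the repeat, and the knock-ins differed from each other in the repeat number.

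Values are log2 of the processed signal of a probe minus log2 of the 75th percentile of its array, 1 probe per gene. A gene was called when its limma p-value, adjusted by Benjamini-Hochberg over all probes tested, was under 0.05. The 48 arrays had 27855 to 32966 probes well above background of 41174. The number of arrays limits the precision. A p-value between genotypes rests on the spread between mice of a group. One between tissues rests on how far the difference within a mouse varied from mouse to mouse. Before scaling, the 75th percentile averaged 1266 intensity units in WT cortex, against 908 in Per3 5/5 and 745 in Per3 4/4. The averages for hypothalamus were 1505, 1048 and 928. Per3 4/4 replicates 6 and 7, which shared a slide, were dim, at 324 and 432 in cortex and 307 and 502 in hypothalamus. The arrays had been scanned on 3 days. The 8 WT mice were spread over day 2 (5) and day 3 (3). Each knock-in had 4 mice on day 1, and the remainder were on day 2 (3 of Per3 4/4) and day 3 (1 of Per3 4/4 and 4 of Per3 5/5). A slide carried cortex and hypothalamus of the same mice. Tissue labels fitted their markers: 6 of 6 cortex markers were lower and 8 of 8 hypothalamus markers higher in hypothalamus. Hypothalamus of WT replicate 3 stood apart in 7 members (Cox6b1, Cox6b2, Ndufa4, Ndufs4, Ndufs7, Ndufv2 and Uqcrb), and that of WT replicate 8 had a summed pituitary marker level of 9.83 against 4.19 to 5.00 in the other WT hypothalami. Counts without either of these WT mice are given below. In Per3 5/5 the pituitary level was 3.45 in cortex of replicate 5, against 0.01 to 0.67 in the other cortices. In Per3 5/5 hypothalamus it was 6.19 in replicate 8 and 2.44 in replicate 7, against 3.66 to 4.85 in the others. Of the 89 members, 86 (96.6%) had a mean signal above the 75th percentile in each tissue, against 47.6% of named genes in cortex and 46.4% in hypothalamus.

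The first question was whether the complexes differed between the tissues. Between the tissues of the same mouse, complex IV stood out: 11 of its 11 common subunits were lower in hypothalamus than in cortex. Their median difference, hypothalamus minus cortex, was -0.35 on the log2 scale, and single genes ranged from -0.67 (Cox8a, 1.59 times higher in cortex) to -0.11 (Cox7b). Over all 89 members 18 were higher and 34 lower in hypothalamus. That balance depended on the scaling, with 8 higher and 47 lower under median centring and 33 higher and 27 lower under quantile normalisation. The shares of named genes called under those scalings are not given here, so these counts have no background beside them. The background was high, since with the 75th percentile scaling 43.0% of 16064 named genes were called higher and 34.6% lower. The median over members was -0.03, against 0.05 over named genes. Centring each array on its median signal in place of the 75th percentile lowered both, to -0.11 and -0.03. The median of complex IV was then -0.43, and 11 of 11 were still called lower. Among the 7331 named genes with a mean signal above the 75th percentile, a comparison chosen after the values were seen, 2998 were higher and 2958 lower, with a median of 0.00.

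Complex by complex, complex V was the other one with calls in 1 direction alone: 8 of 17 genes were lower, 0 higher, and the median was -0.09. Complex III had 1 gene higher and 3 lower of 8 (median -0.05). The subunits of complex I had 10 higher and 6 lower of 36 (median 0.00), and its assembly factors 3 and 2 of 7 (median 0.00). Complex II had 1 higher and 1 lower of 4 (median 0.07).

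**Figure D1:**
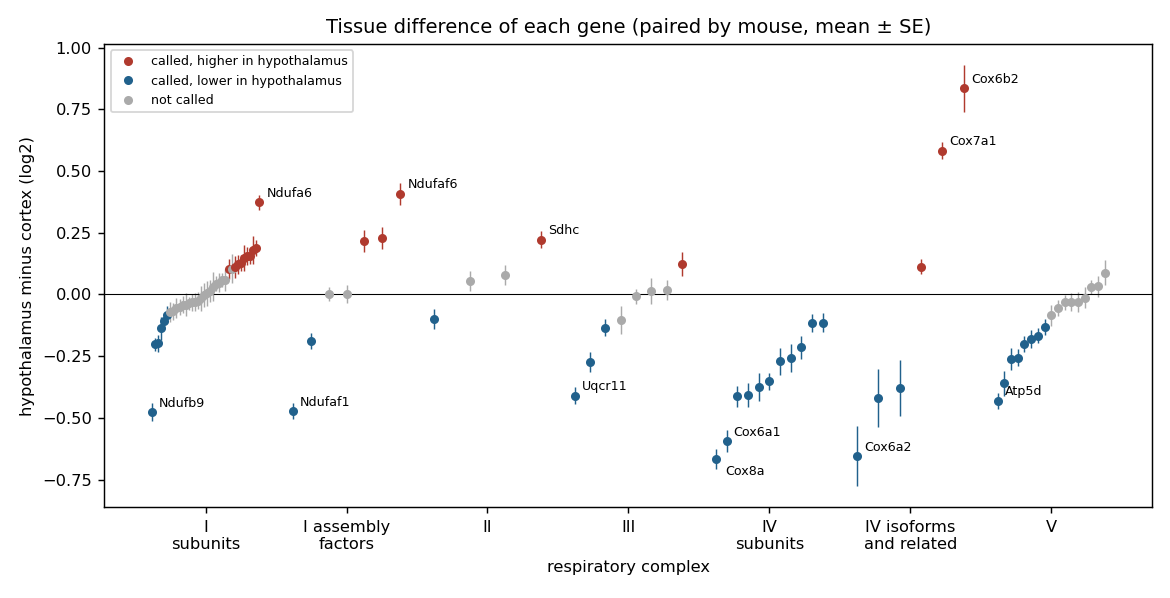
Difference between hypothalamus and cortex (log2, y axis) for each of the 89 genes, ordered within its complex (x axis); points are means over 24 mice with 1 SE, coloured by the limma call. All 11 complex IV subunits lie below 0, between -0.67 and -0.11, while complex I subunits lie on both sides.

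The same order was seen mouse by mouse. The mean difference of the 11 complex IV subunits was below 0 in 23 of 24 mice, with a lowest value of -0.54, a median of -0.32 and a highest of 0.00. It was lower than the mean of complex I subunits, complex I assembly factors, complex II, complex III and complex V in 24 of 24 mice each, and lower than that of the complex IV isoforms in 23 of 24. The mean of complex V was below 0 in 22 of 24 mice (median -0.13) and that of complex III in 19 (median -0.11). Complex I subunits were below 0 in 11 mice and complex II in 9.

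**Figure D2:**
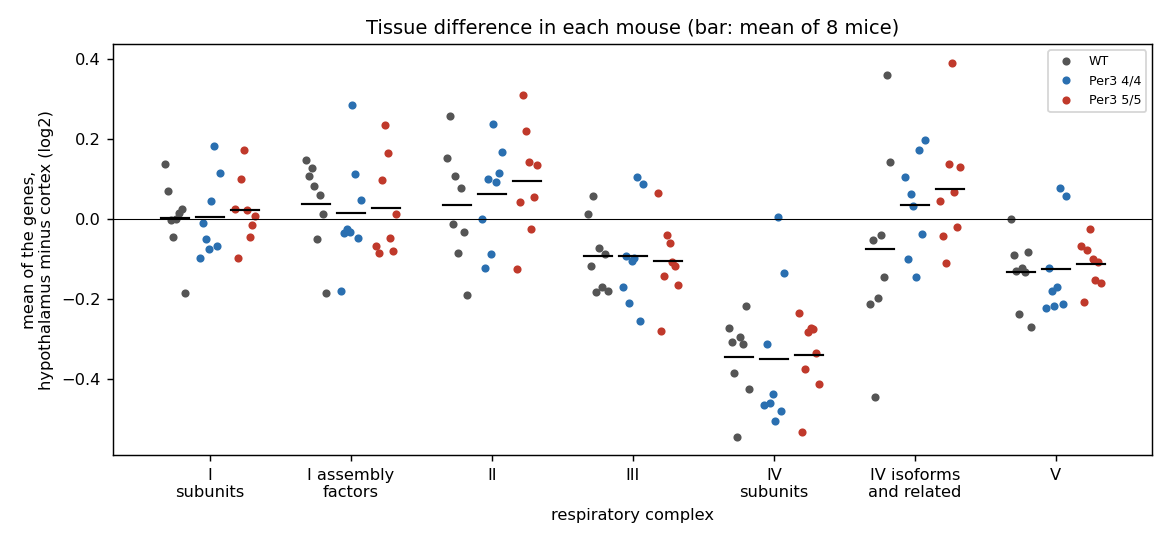
Mean difference between hypothalamus and cortex (log2, y axis) over the genes of each complex (x axis) in each mouse; points are mice, coloured by genotype, and bars are means of 8 mice. Complex IV subunits are below 0 in 23 of 24 mice, with similar means in the 3 genotypes.

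Within each genotype, 7 of the 11 complex IV subunits were called lower in Per3 5/5, 7 in Per3 4/4 and 10 in WT, with medians of -0.35, -0.36 and -0.35. Within the arrays of scan day 1, 2 and 3, the numbers were 9, 7 and 7, with medians of -0.41, -0.33 and -0.32. Quantile normalisation left 9 called and a median of -0.29. The shares of named genes by scan day and under quantile normalisation are not given here. Over all members, the genotypes had 13 higher and 21 lower (Per3 5/5), 10 and 27 (Per3 4/4) and 10 and 28 (WT). Of 16064 named genes, 34.1% were called higher and 29.2% lower in Per3 5/5, 36.1% and 28% in Per3 4/4, and 37% and 27.7% in WT. Without WT replicate 3 the fit over all mice gave 18 higher and 35 lower, and without WT replicate 8 it gave 18 and 32.

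Cox8a, the common form of subunit 8, a small membrane subunit of complex IV, had the greatest fall among the common complex IV subunits. In WT, its values in cortex were 6.94 at the lowest, 7.05 at the median and 7.31 at the highest, and in hypothalamus 6.22, 6.39 and 6.70. In Per3 4/4 they were 7.26, 7.50 and 7.66 against 6.48, 6.85 and 6.93, and in Per3 5/5 7.30, 7.41 and 7.62 against 6.57, 6.72 and 6.93. The tissues did not overlap in any genotype. The difference was -0.67 (SE 0.04, n = 24 mice, limma adjusted p = 1.73e-13), and hypothalamus was lower in 24 of 24 mice. Cox6a1, the common form of subunit 6a, was next. Its lowest, median and highest values in WT cortex were 7.96, 8.11 and 8.37, and those in WT hypothalamus 7.43, 7.62 and 7.81. In this gene too 24 of 24 mice were lower in hypothalamus (-0.59, SE 0.05, limma adjusted p = 1.31e-11). Cox4i1, the common form of the regulatory subunit 4, fell by 0.41 (SE 0.04) and was lower in 24 of 24 mice. Cox6c (-0.41), Cox7c (-0.37) and Cox7a2 (-0.35) were each lower in 23 of 24.

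Promoters are shown for the common complex IV subunits that fell most, Cox8a and Cox6a1, and for 2 of the genes that rose, Cox7a1 and Ndufa6. The sequences are from RefSeq on GRCm38.p6, 300 bases from 250 before to 50 after the start, 5′ to 3′ on the strand of the gene. Capitals mark matches, on either strand, to GCGCANGC (the nuclear respiratory factor 1 motif, NRF1) or CCGGAAG (the ETS motif bound by GABP). The motif AAGATGGCG (YY1) was searched as well and had 0 matches in these 4.

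Cox8a, chr19:7217567-7217866, minus strand: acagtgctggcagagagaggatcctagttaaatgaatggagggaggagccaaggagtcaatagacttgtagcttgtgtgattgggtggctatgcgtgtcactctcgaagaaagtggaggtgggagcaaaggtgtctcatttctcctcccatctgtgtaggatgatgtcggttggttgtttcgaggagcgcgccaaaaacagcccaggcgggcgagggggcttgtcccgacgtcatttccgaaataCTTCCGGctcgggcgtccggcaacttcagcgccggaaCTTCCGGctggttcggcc
Cox6a1, chr5:115348909-115349208, minus strand: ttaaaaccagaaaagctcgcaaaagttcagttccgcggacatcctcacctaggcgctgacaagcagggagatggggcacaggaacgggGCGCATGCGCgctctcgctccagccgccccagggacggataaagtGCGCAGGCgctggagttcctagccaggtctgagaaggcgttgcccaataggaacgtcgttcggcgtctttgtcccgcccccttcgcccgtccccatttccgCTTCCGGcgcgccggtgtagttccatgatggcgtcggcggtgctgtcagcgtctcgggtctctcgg
Cox7a1, chr7:30183921-30184220, plus strand: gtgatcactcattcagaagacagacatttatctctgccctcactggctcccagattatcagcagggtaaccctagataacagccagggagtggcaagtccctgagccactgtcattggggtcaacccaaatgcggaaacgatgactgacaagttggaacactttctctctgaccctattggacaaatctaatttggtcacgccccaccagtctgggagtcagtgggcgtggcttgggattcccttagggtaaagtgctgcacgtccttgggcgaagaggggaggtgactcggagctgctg
Ndufa6, chr15:82354242-82354541, minus strand: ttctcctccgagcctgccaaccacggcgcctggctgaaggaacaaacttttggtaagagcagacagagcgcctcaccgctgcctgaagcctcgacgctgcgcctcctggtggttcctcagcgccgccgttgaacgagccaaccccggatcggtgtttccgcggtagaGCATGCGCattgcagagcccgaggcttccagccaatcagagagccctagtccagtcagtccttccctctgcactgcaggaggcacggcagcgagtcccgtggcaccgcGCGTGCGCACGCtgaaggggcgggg

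Cox8a held 2 ETS matches, and Cox6a1 3 NRF1 matches, 2 of them overlapping, and 1 ETS match. Ndufa6 held 3 NRF1 matches, 2 of them overlapping, and Cox7a1 0 of the 3 motifs. Promoters were matched for 75 of the 91 members. The NRF1 motif was in 32% of them, the ETS motif in 22.7% and the YY1 motif in 8%, against 10.1%, 9.12% and 1.49% of 27025 promoters of the same length. Matches of different motifs overlapped in 7 of the 27025. Among the 9 matched complex IV subunits, 1 had the NRF1 motif and 3 the ETS motif, and among the 5 matched isoform genes 0 had any of the 3. Of the chosen genes with matches, Cox8a and Cox6a1 were lower and Ndufa6 higher in hypothalamus. Whether the motifs go with the direction of the tissue difference was not tested over the members.

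The isoform genes moved both ways. Cox7a1, the heart and muscle form of subunit 7a, was higher in hypothalamus. Its values in WT cortex were 0.65 at the lowest, 0.83 at the median and 1.01 at the highest, and in WT hypothalamus 1.01, 1.21 and 1.39, so the ranges met at their ends. In the knock-ins, hypothalamic values (1.28 to 1.66) lay above cortical ones (0.46 to 1.01). The difference over all mice was 0.58 (SE 0.04, limma adjusted p = 1.21e-13), and 24 of 24 mice were higher. Its common counterpart on the array, Cox7a2, went the other way (-0.35). Cox6b2, the testis form of subunit 6b, was dim. Cortex ranged between -1.64 and -0.95 and hypothalamus between -1.87 (WT replicate 3) and 0.15. The difference was 0.84 (SE 0.09, limma adjusted p = 1.96e-08), higher in 23 of 24 mice, and 0.90 without WT replicate 3. Its common counterpart Cox6b1 differed by -0.21. Cox7a2l, a factor that joins complexes III and IV, was higher by 0.11.

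Cox6a2, the heart and muscle form of subunit 6a, was lower in hypothalamus, as was Cox6a1. Its medians in cortex were 1.84 (WT), 2.02 (Per3 4/4) and 1.69 (Per3 5/5), and in hypothalamus 1.12, 1.06 and 1.23. The groups overlapped, since WT hypothalamus ran from 0.55 to 2.52, and the tissue difference was -0.66 (SE 0.12, limma adjusted p = 3.38e-05), with 3 of 24 mice higher in hypothalamus. Cox7b2, a testis form of subunit 7b (-0.42, SE 0.12), and Cox8b, the heart and muscle form of subunit 8 (-0.38, SE 0.11), were lower as well. Both were dim, with means of -3.90 and -2.90 in cortex, and their common counterparts Cox7b (-0.11) and Cox8a (-0.67) moved in the same direction.

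In complex I, Ndufb9, an accessory subunit of the membrane arm, fell. WT cortex ran from 6.26 through a median of 6.44 to 6.69, and WT hypothalamus from 5.69 through 5.97 to 6.20, without overlap. The difference over all mice was -0.48 (SE 0.04, limma adjusted p = 2.21e-11), with 0 of 24 mice higher. Ndufv1, the subunit that binds FMN and takes electrons from NADH, was lower by a smaller amount (-0.20, SE 0.03). Ndufa6, an accessory subunit, was higher: WT cortex ran from 3.80 through 3.92 to 4.09 and WT hypothalamus from 4.13 through 4.31 to 4.61, again without overlap. The difference was 0.37 (SE 0.03, limma adjusted p = 1.95e-11), higher in 24 of 24 mice. The assembly factors also split. Ndufaf1, which helps build the membrane arm, differed by -0.47 (SE 0.03) and was lower in 24 of 24 mice, and Ndufaf6 was higher by 0.41 in 24 of 24. Ndufaf5, which hydroxylates the core subunit NDUFS7, was higher by 0.23 in 20.

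Complex II, the complex with all its subunits encoded in the nucleus, had 1 call in each direction. Sdhc, a membrane anchor, was higher by 0.22 (SE 0.03, limma adjusted p = 2.44e-06) in 23 of 24 mice. WT cortex was at 2.99, 3.18 and 3.40 (lowest, median and highest) and WT hypothalamus at 3.13, 3.33 and 3.55, so the groups overlapped. Sdhb, the iron-sulfur subunit, was called lower (-0.10, SE 0.04, limma adjusted p = 0.0381), with 10 of 24 mice higher. That call was lost in 13 of 24 fits without 1 mouse. Under quantile normalisation the log2 difference of Sdhb was 0.0024, with the sign turned. Sdhd, the other anchor (0.05, SE 0.04), and Sdha, the flavoprotein with the active site (0.08, SE 0.04), were not called. In complex III, the small subunits Uqcr11 (-0.41), Uqcrq (-0.27) and Uqcr10 (-0.13) were lower, and Uqcrb (0.12) was higher. In complex V, Atp5d, the delta subunit of the rotor stalk, was lower in 24 of 24 mice (-0.43, SE 0.03), and Atp5mpl, Atp5k, Atp5h, Atp5g1, Atp5e, Atp5b and Atp5md were lower by smaller amounts, -0.36 to -0.13.

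Other mitochondrial lists were compared beside the members. Of 15 enzymes of the tricarboxylic acid cycle and pyruvate dehydrogenase, 8 were lower and 1 higher in hypothalamus (median -0.15). Of 10 carriers and partners of complexes III and IV, such as cytochrome c and the carriers of adenine nucleotides and phosphate, 7 were lower and 1 higher (median -0.10). Of 28 assembly factors outside the symbol rule, 11 were higher and 11 lower (median 0.03), and of 17 regulators of mitochondrial biogenesis and mitochondrial DNA expression, 6 and 8 (median -0.03). Cytosolic ribosomal proteins went the other way, with 49 of 82 higher and 9 lower (median 0.14).

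The cell makeup of the pieces differed too. Of 12 neuron markers, 7 were lower and 2 higher in hypothalamus, and their summed level was 8.18 to 8.49 in cortex and 7.19 to 7.74 in hypothalamus. Of 8 oligodendrocyte markers, 8 were higher (summed level 6.16 to 7.53 in cortex and 7.46 to 8.36 in hypothalamus), and of 8 microglia markers, 8 were lower (2.82 to 4.68 and 2.13 to 4.06). Of 8 astrocyte markers, 4 were higher and 2 lower, and of 6 endothelial markers, 4 were lower. Choroid plexus markers were higher in 6 of 6 and pituitary markers in 3 of 6. The part of these differences in the result for complex IV was not tested. In pieces of tissue, fewer cells of a type and less RNA per cell cannot be told apart.

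The second question was whether the knock-in genotypes differed from WT. Cox6a1 and Cox8a were called higher than WT in all 4 comparisons, and they were the only members of the 89 called in the same direction throughout. The share of all named genes called in 1 direction in all 4 was not counted, so this count has no background beside it. The counts that follow include both genes. In cortex, Per3 5/5 had 2 members higher and 7 lower than WT of 89, the 2 being Cox6a1 and Cox8a, with 7.11% of named genes called higher and 4.49% lower. Per3 4/4 cortex had 12 higher and 2 lower, with a background of 12.8% and 10.4%. In hypothalamus, Per3 5/5 had 10 higher and 6 lower, with 9.66% and 10.9%, and Per3 4/4 had 10 higher and 1 lower, with 8.18% and 8.5%. The medians over members were -0.04, 0.05, 0.00 and 0.06 in that order, against 0.02, 0.02, -0.02 and 0.02 over named genes. Under median centring they were -0.15, -0.01, -0.08 and 0.01, against -0.09, -0.04, -0.09 and -0.04. Both knock-ins were set against the same WT arrays, so their comparisons are not independent.

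With scan day as a block, Per3 4/4 met WT on days 2 and 3, and Per3 5/5 met WT on day 3 alone. Day 1 entered through the difference between the knock-ins. The counts fell for all genes: 0.682% (Per3 5/5) and 7.4% (Per3 4/4) of named genes were called in cortex, in either direction. In hypothalamus the shares were 2.44% and 0.841%. Among members Cox6a1 and Cox8a alone were then called, both in cortex of both knock-ins, and 0 members in hypothalamus. Without WT replicate 3, Per3 5/5 hypothalamus had 7 higher and 2 lower and Per3 4/4 hypothalamus 8 and 0. Without WT replicate 8 the counts were 5 and 8 in Per3 5/5 and 6 and 1 in Per3 4/4.

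**Figure D3:**
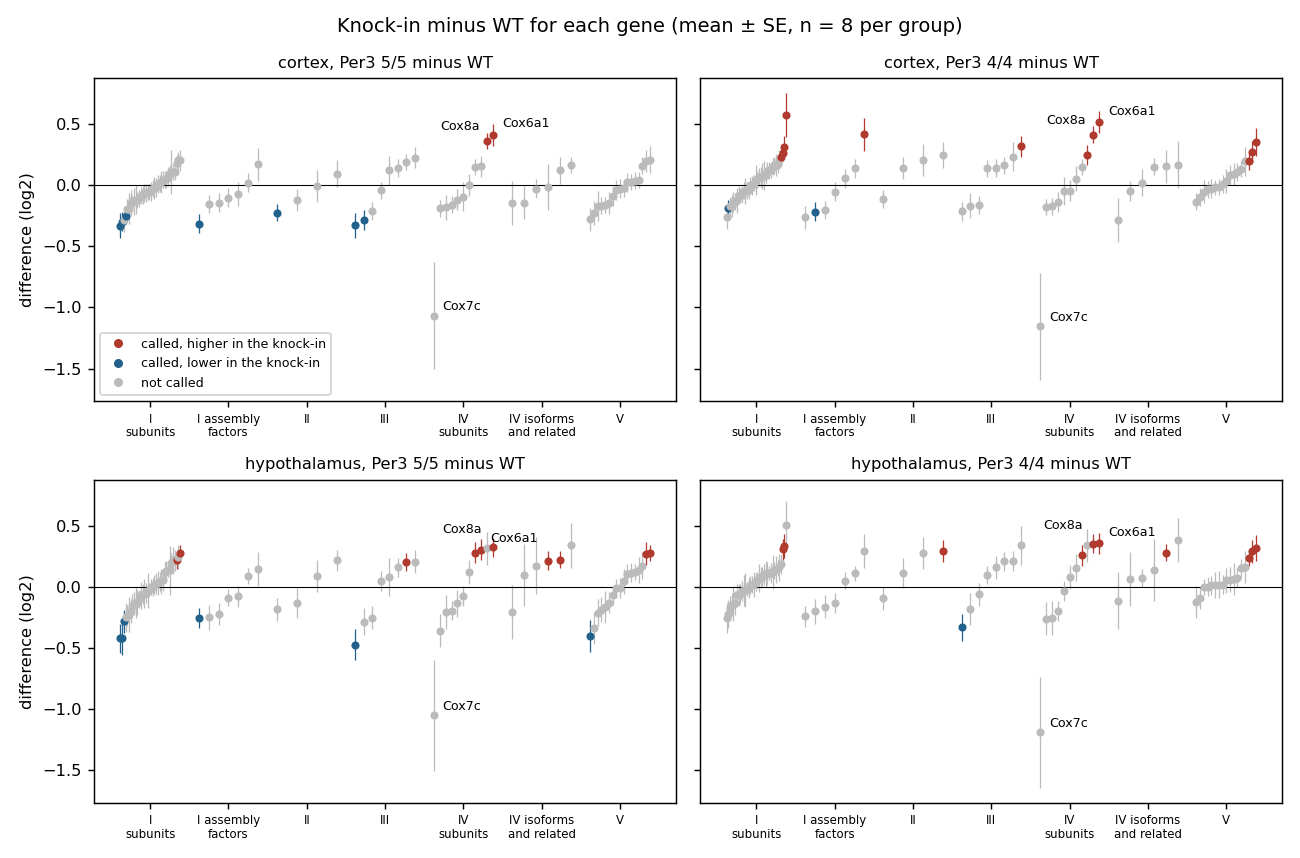
Difference from WT (log2, y axis) of each of the 89 genes by complex (x axis), for each knock-in and tissue; points are differences between means of 8 mice with 1 SE, coloured by the limma call. Cox6a1 and Cox8a are above 0 in each of the 4 panels, and Cox7c lies near -1 with a wide error.

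Cox6a1 in cortex was 7.96 at the lowest, 8.11 at the median and 8.37 at the highest in WT, 8.30, 8.52 and 8.82 in Per3 5/5, and 8.32, 8.70 and 8.97 in Per3 4/4. In each knock-in 7 of 8 mice lay above all 8 WT mice. The differences were 0.42 (SE 0.09, limma adjusted p = 0.00812) and 0.52 (SE 0.09, limma adjusted p = 0.00139). In hypothalamus it was 7.43, 7.62 and 7.81 in WT, 7.75, 7.92 and 8.14 in Per3 5/5, and 7.57, 7.98 and 8.22 in Per3 4/4. Again 7 of 8 knock-in mice in each group lay above every WT mouse, and 1 mouse of each knock-in lay within the WT range. The differences were 0.31 (SE 0.09, limma adjusted p = 0.0191) and 0.36 (SE 0.09, limma adjusted p = 0.0136).

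Cox8a, whose values are given above, was higher by 0.36 in Per3 5/5 cortex (SE 0.07, limma adjusted p = 0.00387) and by 0.42 in Per3 4/4 cortex (SE 0.07, limma adjusted p = 0.00115). In hypothalamus the differences were 0.33 (SE 0.08, limma adjusted p = 0.00731) and 0.36 (SE 0.08, limma adjusted p = 0.00931). Of 8 knock-in mice, 6 or 7 per group lay above all WT mice, and the groups overlapped in the remaining 1 or 2.

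**Figure D4:**
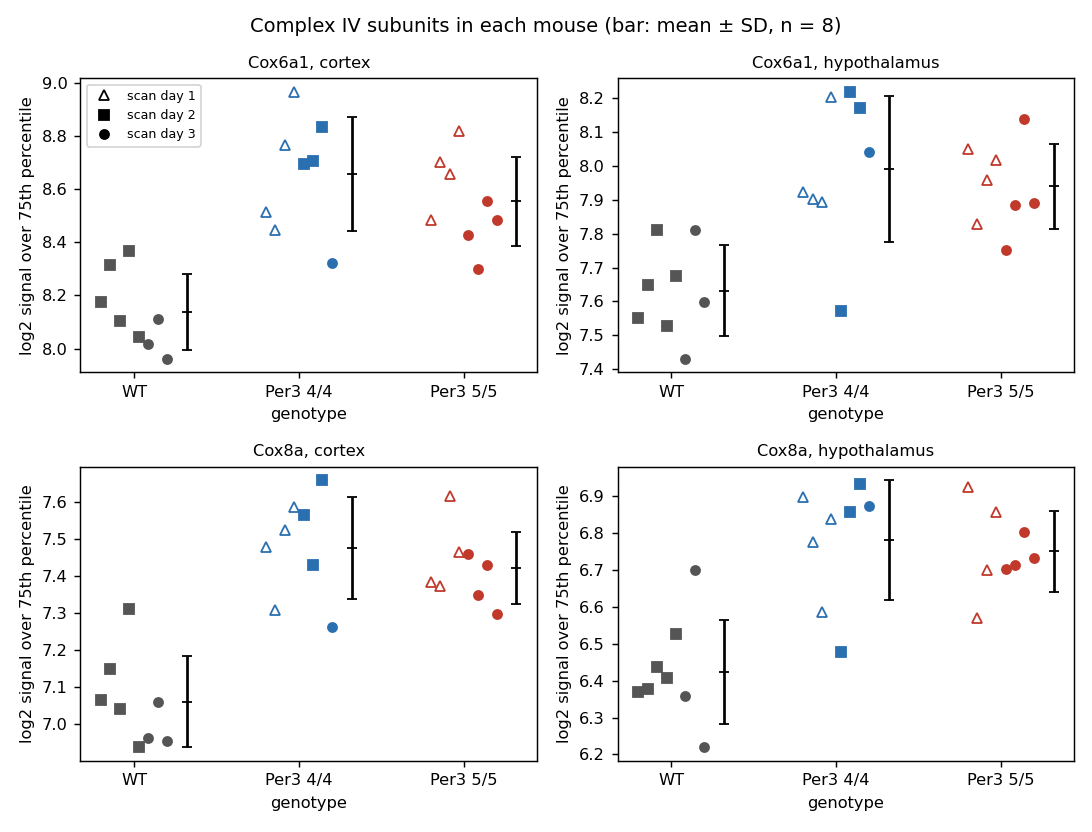
Cox6a1 (top) and Cox8a (bottom) in cortex (left) and hypothalamus (right): log2 signal over the 75th percentile of the array (y axis) in each mouse by genotype (x axis), with the mean and SD of 8 mice. Symbols mark scan days. At least 6 of 8 knock-in mice in each group lie above the WT range.

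With scan day as a block the differences in cortex were 0.46 and 0.47 for Cox6a1 (limma adjusted p = 0.0375 in Per3 5/5 and 0.00817 in Per3 4/4) and 0.41 and 0.41 for Cox8a (0.0314 and 0.00787). In hypothalamus they were 0.31 and 0.35 for Cox6a1 and 0.31 and 0.35 for Cox8a, not called (limma adjusted p = 0.0606 to 0.109). On 1 scan day alone, 4 Per3 5/5 against 3 WT or 3 Per3 4/4 against 5 WT, they were 0.30 to 0.54, not called. Leaving out any 1 mouse lost neither call. The scaling mattered for Cox6a1: under quantile normalisation its cortical differences were 0.05 (Per3 5/5) and -0.03 (Per3 4/4), and its hypothalamic ones -0.04 and -0.05, while Cox8a remained called in all 4 comparisons (0.17 to 0.25). By mean probe signal, which is not a transcript level, Cox6a1 ranked 2 of 15398 named genes in cortex and 4 of 15924 in hypothalamus, where Cox8a ranked 27 and 77. The part of brightness in the result was not tested. No difference between the knock-ins was called in either gene (Cox6a1 -0.10, SE 0.09 and -0.05, SE 0.09, and Cox8a -0.05, SE 0.07 and -0.03, SE 0.08, Per3 5/5 minus Per3 4/4 in cortex and hypothalamus).

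Other complex IV subunits did not join them as a group. Cox4i1 was called higher in Per3 4/4 cortex (0.25), Per3 5/5 hypothalamus (0.28) and Per3 4/4 hypothalamus (0.26), with a value of 0.16 in Per3 5/5 cortex. Both Per3 4/4 calls were often lost without 1 mouse, in 10 of 24 fits in cortex and 12 of 24 in hypothalamus. In cortex its differences turned negative under quantile normalisation (-0.08 and -0.15). Over the 11 subunits 2 were higher in Per3 5/5 cortex, 3 in Per3 4/4 cortex, 3 in each knock-in's hypothalamus, and 0 lower. The medians of the 11 were -0.09, -0.04, -0.07 (Per3 5/5) and 0.08 (Per3 4/4). Of the isoforms, Cox7a1 was called higher in hypothalamus of Per3 5/5 (0.23, SE 0.07) and of Per3 4/4 (0.28, SE 0.07), with 4 and 7 of 8 mice above all WT mice, and had differences of -0.02 and -0.04 in cortex. Without WT replicate 8 the first was not called (0.21, limma adjusted p = 0.0509).

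In complex I, Ndufv1 was higher in Per3 4/4 cortex (0.32), where 8 of 8 mice lay above all WT mice, and in Per3 4/4 hypothalamus (0.31). Ndufs7, the core subunit with the last iron-sulfur cluster, was higher in Per3 4/4 hypothalamus (0.34, SE 0.10, and 0.26 without WT replicate 3), and Ndufb7 in Per3 5/5 hypothalamus (0.28, SE 0.06) with 7 of 8 mice above all WT mice. Ndufaf3, an assembly factor, was higher in Per3 4/4 cortex (0.42, SE 0.14).

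Members lower than WT included Ndufv2, an iron-sulfur core subunit, in Per3 5/5 cortex (-0.33, SE 0.10) and hypothalamus (-0.42, SE 0.14). Without WT replicate 3 neither was called (-0.30 and -0.33). Ndufb6 was lower in Per3 5/5 hypothalamus (-0.42, SE 0.12), and Ndufs4 in Per3 4/4 cortex (-0.19, SE 0.07). Ndufaf5 was lower in cortex of both knock-ins (-0.31 and -0.22). In complex III, Uqcrfs1, the Rieske iron-sulfur protein, was lower in Per3 5/5 cortex (-0.33, SE 0.10) and hypothalamus (-0.47, SE 0.13). Its hypothalamic values were 4.44 at the lowest, 4.54 at the median and 5.09 at the highest in WT and 3.84, 4.07 and 4.57 in Per3 5/5, with 5 of 8 below all WT mice. Uqcrb was lower in Per3 5/5 cortex (-0.28, SE 0.08) and Per3 4/4 hypothalamus (-0.33, SE 0.11), the second -0.22 and not called without WT replicate 3. The calls of Ndufs4 and of Uqcrb in Per3 4/4 hypothalamus were each lost in 17 of 24 fits without 1 mouse. Those of Ndufaf5 in Per3 4/4 cortex were lost in 12, of Uqcrfs1 in Per3 5/5 cortex in 10, and of Ndufv2 in 9 in each tissue.

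In complex II, Sdhd was lower in Per3 5/5 cortex (-0.22, SE 0.07, limma adjusted p = 0.0468), a call lost in 18 of 24 fits without 1 mouse, and Sdhc higher in Per3 4/4 hypothalamus (0.30, SE 0.09, limma adjusted p = 0.0274). Sdhc values there were 3.47 at the lowest, 3.64 at the median and 3.92 at the highest, against 3.13, 3.33 and 3.55 in WT, and 7 of 8 mice lay above all WT mice. In hypothalamus the 8 knock-in mice of scan day 1, a day without WT mice, all had more Sdhc (3.67 to 3.92) than the other 8 knock-in mice (3.28 to 3.61). With scan day as a block the difference of Per3 4/4 from WT was 0.17 and not called. Sdha and Sdhb had 0 calls against WT, with differences from -0.00 to 0.28 for Sdha and from -0.13 to 0.14 for Sdhb. In complex V, Atp5d and Atp5g2, a form of the membrane rotor's c subunit, were higher in Per3 4/4 cortex (0.20 and 0.27), Per3 5/5 hypothalamus (0.28 and 0.28) and Per3 4/4 hypothalamus (0.24 and 0.29). Atp5g2 had more than 1 tested probe, and in hypothalamus of neither knock-in were all of them called. In cortex Atp5d too was higher in each knock-in mouse of scan day 1 than in the other knock-in mice. Atp5g1, another c subunit gene, was higher in both tissues of Per3 4/4 (0.36 and 0.32), and the third, Atp5g3, was lower in Per3 5/5 hypothalamus (-0.40).

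Other lists stood beside these counts. Cytosolic ribosomal proteins had 32 of 82 higher and 0 lower in Per3 4/4 cortex, and 3 and 3 in Per3 5/5 cortex. Tricarboxylic acid cycle enzymes had 0 to 1 higher and 0 to 2 lower of 15 in each comparison with WT. Assembly factors outside the symbol rule had 1 to 2 higher and 3 to 8 lower of 28. Oligodendrocyte markers were higher than WT in hypothalamus, 7 of 8 in Per3 4/4 and 4 of 8 in Per3 5/5, with summed levels of 7.46 to 8.01 in WT, 7.87 to 8.36 in Per3 4/4 and 7.74 to 8.09 in Per3 5/5, and 0 of 8 were called in cortex. Summed astrocyte marker levels in hypothalamus were 7.87 to 8.23 in WT, 8.04 to 8.51 in Per3 4/4 and 8.19 to 8.58 in Per3 5/5. In cortex their medians were 8.38 in WT and 8.53 in each knock-in, with overlapping ranges. The part of either cell type in the calls against WT was not tested.

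Cox7c, a small complex IV subunit with 1 probe on the array, had the widest differences from WT and passed no test. They were -1.07 (SE 0.44) and -1.15 (SE 0.44) in cortex of Per3 5/5 and Per3 4/4, and -1.05 (SE 0.45) and -1.19 (SE 0.45) in hypothalamus, with limma adjusted p from 0.0601 to 0.105. In cortex of Per3 5/5, replicates 1 to 4 were at 0.36, 0.70, 0.62 and 0.83, and replicates 5 to 8 at 2.67, 2.74, 2.97 and 2.94. In cortex of Per3 4/4, replicates 1 to 4 were at 0.48, 0.52, 0.60 and 1.08 and replicates 5 to 8 at 2.93, 2.24, 2.74 and 2.53. WT cortex ran from 2.60 to 3.05. The low 8 were the knock-in mice of scan day 1, and they were also the low 8 in hypothalamus, at -0.13 to 0.55 against 1.92 to 2.69 in the other knock-in mice and 2.21 to 2.62 in WT.

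**Figure D5:**
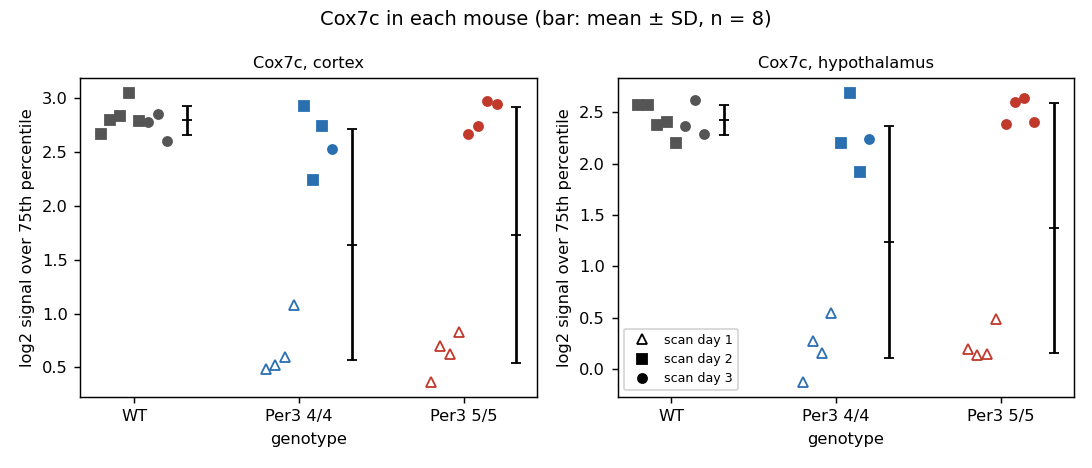
Cox7c in cortex and hypothalamus: log2 signal over the 75th percentile of the array (y axis) in each mouse by genotype (x axis), with the mean and SD of 8 mice. The 8 knock-in mice of scan day 1 lie at or below 1.08 in cortex and 0.55 in hypothalamus, and all other mice at or above 1.92.

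With scan day as a block the differences of Cox7c from WT were -0.12 to 0.01. Cox7c was the 1 member of 89 (1.12%) with all 8 knock-in mice of scan day 1 below the other 8 in both tissues, where 1.0% of 15258 named genes did so. In the other direction there were 0 members and 0.511% of named genes. Within a single tissue, 2 members had all 8 mice of scan day 1 above the other 8 in cortex, against 1.71% of named genes, and 2 in hypothalamus, against 1.8%. In cortex these were Sdha, at 2.99 to 3.40 against 2.19 to 2.86, and Atp5d, at 4.83 to 5.02 against 4.51 to 4.81. In hypothalamus they were Sdhc, at 3.67 to 3.92 against 3.28 to 3.61, and Ndufa6, at 4.36 to 4.52 against 4.09 to 4.36. Scan day 1 held no WT mouse, and the slides of that day held mice of both knock-ins, so what else those mice shared cannot be told apart from the day. Cox7c was lower in hypothalamus than in cortex in 23 of 24 mice.

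The last question was whether the knock-ins differed from each other and whether genotype and tissue combined. Setting Per3 5/5 against Per3 4/4, limma called 0 of 89 members in cortex and 0 in hypothalamus, with 0.0% of named genes called in either. Before adjustment 11 and 6 members had a limma p under 0.05. These are not calls, and the share of named genes at that level is not given here, so no excess can be read from them. The median differences were -0.08 and -0.05, against 0.00 and -0.02 over named genes. The methods' t-test gave 0 after adjustment in both. For the difference between genotypes of the tissue difference limma called 0 of 89 in each of the 3 comparisons, with 1 member each at an unadjusted p under 0.05. That member was Cox7a1 for both knock-ins against WT. Its differences were 0.33 (SE 0.08) for Per3 4/4 and 0.25 (SE 0.08) for Per3 5/5, with limma adjusted p of 0.797 and 0.791. The share of named genes at either level is not given here for these 3 comparisons. No excess or lack can be read from the member counts.

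Of the 89 genes, 19 had more than 1 tested probe. Their probes differed between the tissues in the same direction in 15 of 19, and in 0 genes were probes called in opposite directions in any comparison. Against WT, probes had the same direction in 11 (cortex) and 12 (hypothalamus) of 19 genes in Per3 5/5, and in 15 and 16 in Per3 4/4. In Per3 4/4 cortex 10 of the 19 genes had a probe called and 1 had all its probes called. In Per3 5/5, 3 genes had a probe called in each tissue, and 0 had all. In Per3 4/4 hypothalamus the numbers were 4 and 0.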

How the data were processed

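Total RNA of both tissues was labelled with Cy3 and hybridised to 1-colour Agilent arrays. The authors deposited, per array, Agilent Feature Extraction 10.7.1.1 output with processed signal intensity and flags, 0 or 1, for spots well above background, and a log2 series table scaled to the 75th percentile. That table matched the values used here within 0.05 for 99.97% of its filled entries (287243 cortex entries were blank). Spots of a probe were averaged after outlier spots were left out (48 to 172 per array), and no spot was saturated. Values were log2 intensity minus log2 of the 75th percentile of the array. Probes were named from their RefSeq accession through RefSeq gene tables, 27668 of 41174.

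Genotypes were compared within a tissue with limma 3.58.1 in R 4.3.3 (24 arrays, 3 group means), and tissues with mouse as a block (48 arrays). Pairing by mouse comes from the labels. Both slide and scan day are contained in the mouse block there. Each gene was counted with its brightest tested probe. Fits were tested on simulated data. Alternatives were median centring, quantile normalisation, normexp (offset 50), no filter, the mean of a gene's probes, scan day or slide as a block, 1 scan day alone, a replicate block, the authors' table, the methods' t-test, and leaving out each mouse. Genes named are Sdha to Sdhd, the isoforms and their counterparts, up to 3 called genes per direction against WT, genes called in both knock-ins and tissues or under the scan day block, and the 5 largest tissue differences per direction. Others named were chosen after their values were seen. Members and lists were chosen with earlier results of these data known. Mitochondrially encoded subunits were not analysed here. A result of 1 member is not reported here.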

Additional observations from a re-analysis of the deposited data

Results flagged for a closer look

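Single mice far from the other 7 of their group were found in 12 of 186 groups of named genes (6.45%), where chance gives about 1 in 20. The test compared the gap to the nearest mouse with the range of the group (Dixon's test). WT replicate 3 hypothalamus accounted for 7. It was the lowest of its group for Cox6b1 (2.71), Cox6b2 (-1.87) and Ndufs7 (5.14), and the highest for Ndufa4 (5.88), Ndufs4 (4.55), Ndufv2 (4.14) and Uqcrb (5.02). WT replicate 8 hypothalamus was lowest for Ndufaf3 (1.42). The others were Ndufa4 in Per3 5/5 cortex replicate 8 (highest, 5.40), Ndufa6 in Per3 4/4 hypothalamus replicate 8 (lowest, 4.25), and Ndufb7, lowest in hypothalamus of Per3 5/5 replicate 5 (5.46) and Per3 4/4 replicate 5 (5.37).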

How the results depend on the processing

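The median of the complex IV subunits was below 0 in hypothalamus against cortex under every alternative run. The tissue fit was not run on the authors' table, which was centred within each tissue. Of all members, 18 were higher and 34 lower in hypothalamus. Median centring gave 8 higher, quantile normalisation 33 higher, and scan days 1, 2 and 3 alone gave 10, 11 and 6 higher, with 22 and 18 lower on days 2 and 3. Without the mouse as a replicate block the counts were 18 and 29. Leaving out a mouse gave 17 to 19 higher and 32 to 36 lower. For the alternatives in this section the shares of named genes are not given, apart from the scan day block against WT. The member counts therefore have no background of their own.

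The counts against WT depended on the processing, and the cause was not tested. With slide as a block, Per3 4/4 met WT on slides 6 and 11 alone. Per3 5/5 met WT on no slide, and its comparison ran through Per3 4/4. A call lost under the slide block therefore says little about the genotypes. In Per3 4/4 cortex 12 higher became 2 (median centring), 6 (normexp), 7 (quantile), 2 (scan day block), 0 (slide block) and 0 (1 scan day), and 2 lower became 7, 10, 8, 0, 0 and 0 in the same order, 8 (the methods' t-test), 1 (the authors' table) and 0 (no filter). In Per3 5/5 cortex 2 higher became 6 (t-test), 0 (slide block) and 0 (1 scan day), and 7 lower became 16 (median centring), 11 (normexp), and 0 with scan day block, slide block and 1 scan day. In Per3 4/4 hypothalamus 10 higher became 2 (median centring), 4 (normexp), 16 (t-test) and 0 with scan day block, slide block and 1 scan day, and 1 lower became 2 (quantile) and 0 with the mean of probes, no filter, normexp, scan day block, slide block and 1 scan day. In Per3 5/5 hypothalamus 10 higher became 3 (median centring), 3 (normexp) and 0 with scan day block, slide block and 1 scan day, and 6 lower became 10 (median centring), 2 (no filter), 2 (normexp), 2 (t-test) and 0 with scan day block, slide block and 1 scan day.

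Leaving out 1 mouse gave 6 to 14 higher (6 without WT replicate 1, 7 without Per3 4/4 replicate 2 or 4) and 0 to 8 lower (8 without Per3 4/4 replicate 7, 7 without Per3 5/5 replicate 8) in Per3 4/4 cortex. It gave 2 to 6 higher and 2 to 11 lower in Per3 5/5 cortex (6 and 11 without Per3 5/5 replicate 8, 2 lower without Per3 5/5 replicate 3). It gave 3 to 11 higher (3 without Per3 4/4 replicate 1, 6 without Per3 4/4 replicate 3 or WT replicate 1 or 8) and 0 to 4 lower (4 without Per3 4/4 replicate 6) in Per3 4/4 hypothalamus. It gave 5 to 11 higher (5 without WT replicate 8, 6 without Per3 5/5 replicate 3 or 4 or WT replicate 1 or 6) and 2 to 9 lower (2 without Per3 5/5 replicate 3, 6, 7 or 8 or WT replicate 3) in Per3 5/5 hypothalamus.

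Replicate numbers were not taken to pair mice between genotypes, since in no comparison did every same-numbered pair correlate above 0.1. Some of these mice did share a slide, namely replicates 1 to 4 of both knock-ins and replicate 5 of Per3 4/4 and WT. Correlations of their deviations were 0.03 to 0.34 for hypothalamus of Per3 5/5 and WT (6 of 8 pairs above 0.1), -0.09 to 0.46 for cortex of the knock-ins (5 of 8), and -0.42 to 0.52 over all comparisons. A replicate block gave 5 higher in Per3 5/5 cortex and 1 lower in Per3 4/4 cortex, and moved no other count by over 1.5 times. Between the knock-ins and for the interactions 0 members were called under every alternative run. Signs turned for Cox6a1 under quantile normalisation (-0.025 in Per3 4/4 cortex, -0.053 in hypothalamus of Per3 4/4 and -0.042 in that of Per3 5/5). They also turned for Cox4i1 in Per3 4/4 cortex (quantile, -0.15) and Sdhb between tissues (quantile, 0.0024). With a slide block they turned for Ndufv2 (0.067) and Uqcrfs1 (0.11) in Per3 5/5 hypothalamus. No slide held both Per3 5/5 and WT, so the slide block cannot show a reversal of these genes. Of 30 calls of named genes against WT, 4 held with scan day as a block.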
